A study of Zea mays with 9 samples.

Results

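The genes described here were lower in tassels of both ndl1 and Bif1;Bif4 plants of maize than in wildtype tassels. For each gene and each mutant, L is the log2 of the mean normalized count of the mutant libraries plus 1, over the mean of the wildtype libraries plus 1. A gene was included where the wildtype mean was at least 50, L was at most -1 in both mutants, and every mutant library lay below all 3 wildtype libraries. This held for 75 of 39305 gene identifiers. Of these, 7 genes that the rule lists by identifier (BA1, baf1, ra1, ra3, MADS36, CUC2 and TD1) were set aside, which left 68 genes. Among all genes, 171 met the same conditions in ndl1 and 266 in Bif1;Bif4, so that the 75 were 43.9% of the first list and 28.2% of the second. The 68 genes were thus chosen by their levels in each mutant against wildtype, with the same wildtype libraries in both. Those differences are given as a description. Calls of the 68 in these contrasts are counted below, but the choice largely fixed their outcome and nothing is read from them.

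The 9 libraries came from field-grown B73 tassels of 2 to 4 mm: 4 of the ndl1 mutant, 2 of Bif1;Bif4 plants, heterozygous for both mutations and called double heterozygotes below, and 3 of wildtype. The ndl1 plants are mutant in zmftsh10, whose product is an ATPase of mitochondria by the series title, and their tassels included severely affected ones that still bore a few axillary meristems. Both Bif genes code for Aux/IAA proteins, which repress the response to auxin. The libraries held 16863087 to 22533736 reads each, and 8117 identifiers had no read. On the first principal component, with 43.5% of the variance, ndl1 replicate 2 (-2.87) lay nearest to wildtype (-59.8 to -19.7) and the other ndl1 libraries lay from 27.5 to 89.8. The meristem homeobox gene kn1 was abundant throughout, at 5048 to 7628 normalized counts in ndl1, 5897 and 6084 in Bif1;Bif4 and 7623 to 8649.9 in wildtype. Transcript levels of the mutated genes overlapped wildtype and do not check the genotypes: NDL1 stood at 2954 to 3487 in ndl1 and 3194 to 3539.9 in wildtype, BIF1 at 141 and 459 in Bif1;Bif4 and 243 to 493 in wildtype, and BIF4 at 107 and 210.4 in Bif1;Bif4 and 154 to 264 in wildtype.

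A tassel forms its branches and spikelets from axillary meristems, groups of stem cells that arise on the flanks of the inflorescence where auxin accumulates. Boundary and branching regulators mark the place of each new meristem, and homeobox, TCP and other transcription factors then pattern the organs it makes. Barren inflorescence mutants of maize are known for forming few axillary meristems. In bulk samples of this kind, fewer cells of a type and less RNA per cell cannot be told apart.

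L was lower in Bif1;Bif4 than in ndl1 for 51 of the 68 genes and lower in ndl1 for 17. The median L was -1.31 in ndl1 and -1.73 in Bif1;Bif4, beside medians of -0.01 in both mutants over the 18488 genes with a wildtype mean of at least 50. In ndl1 L ran from -3.91 to -1.02, and 6 genes were at or below -2. In Bif1;Bif4 L ran from -5.35 to -1.05, with 26 genes at or below -2 and 12 at or below -3. The wildtype mean of the 68 genes was 53.8 to 2837 normalized counts, with a median of 149. All 68 passed the filter on low counts of the tests, as the wildtype minimum ensured. The limma fit of ndl1 against wildtype called 42 of the 68 lower (Benjamini-Hochberg), beside 1.22% of all 22416 genes tested called lower, 1.94% higher and 3.16% in either direction. The fit of Bif1;Bif4 against wildtype called 48 of the 68 lower, beside 2.05% of 22381 genes called lower, 2.23% higher and 4.28% in either direction. Nothing is read from these counts, since the same contrasts chose the genes. They also hung on single libraries: of the 68, ndl1 calls numbered 1 without wildtype replicate 2, 7 and 11 without wildtype replicates 1 and 3, and 16 without ndl1 replicate 1. The calls in Bif1;Bif4 numbered 1 without wildtype replicate 2 and 14 without either Bif1;Bif4 library.

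**Figure D1:**
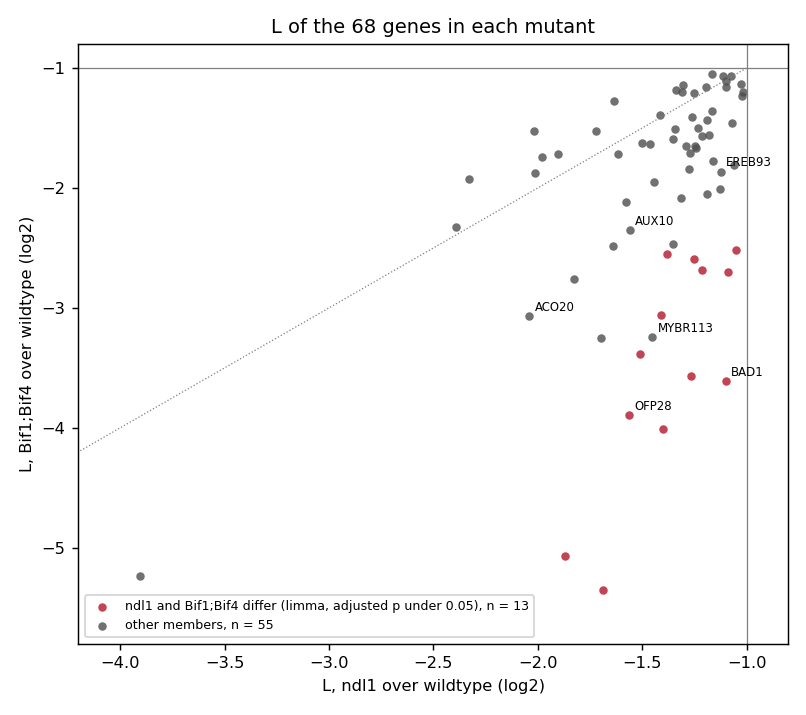
L of the 68 genes in ndl1 (horizontal axis, log2) and in Bif1;Bif4 (vertical axis, log2). Grey lines mark the threshold of -1, the dotted line marks equal falls, and red points are the 13 genes whose levels differed between the mutants. All red points lie below the dotted line, and the gene at the lower left, with L of -3.91 and -5.24, is GRMZM2G068519.

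Genes just inside and just outside the threshold differed little. In ndl1 the last genes included were GRMZM2G070442, GRMZM2G347956 and GRMZM2G135877, with L of -1.02, -1.02 and -1.03, while GRMZM2G465091, GRMZM2G139700 and GRMZM2G013302 stood at -0.99, -0.98 and -0.96 and were left out. In Bif1;Bif4 the last included were GRMZM2G043338, GRMZM2G090435 and TAB2, with L of -1.05, -1.06 and -1.07. Just outside it were AC166636.1_FG007, GRMZM2G007130 and GRMZM5G883126, with L of -0.99, -0.98 and -0.91.

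By reference annotation 47 of the 68 identifiers matched a RefSeq gene, 46 of them protein coding and 1 a pseudogene (GRMZM2G321810), and 14 had a descriptive name. Of the 14, 7 are transcriptional regulators, 2 carry names of hormone pathways, 2 encode membrane channels and 3 are of other kinds. Counted by family symbol alone, 6 of the 14 (42.9%) carried a transcription factor family name, beside 225 of 1867 (12.1%) named genes with a wildtype mean of at least 50. The symbols counted include those of the families found among the 14, and factors under other symbols, such as BAD1 and kn1, were missed. Nothing is read from these shares. Levels below are normalized counts after all 9 libraries had been scaled together, given by replicate number, and are not corrected for gene length.

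Among the transcriptional regulators BAD1 (branch angle defective1, GRMZM2G110242) is a TCP factor that promotes cell proliferation in the pulvinus, the tissue at the base of tassel branches that sets their angle. BAD1 stood at 74.7, 159.9, 144 and 93.4 in the ndl1 libraries, at 27.3 and 12.8 in the double heterozygotes and at 259, 236 and 269 in wildtype. The mutants did not overlap, with Bif1;Bif4 lowest, and wildtype lay above both as the rule asks. L was -1.10 in ndl1 and -3.61 in Bif1;Bif4. Of the 47 genes with a place in the reference, 1 pair lay within 20 genes of each other: GRMZM2G475536, without a descriptive name, lay 6 genes from BAD1 and was chosen after its values were seen. Its levels were 8.40, 18.0, 29.2 and 11.9 in ndl1, 38.2 and 7.44 in the double heterozygotes, and 71.0, 96.0 and 100.1 in wildtype. Unlike BAD1, it had overlapping levels in the mutants, with L of -2.33 in ndl1 and -1.92 in the double heterozygotes.

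The WUSCHEL-related homeobox gene wox3A (GRMZM2G122537, also listed as HB82) belongs to the WOX3 group, whose narrow sheath members recruit the cells of leaf margins in maize. Its level was 77.5, 161, 120.4 and 90.4 in ndl1, 57.2 and 119 in the double heterozygotes and 273, 284 and 228 in wildtype. The mutant groups overlapped each other, and L was -1.21 in ndl1 and -1.56 in Bif1;Bif4.

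Ovate family proteins are transcriptional repressors known from Arabidopsis and tomato for effects on organ shape, and 2 of their genes were among the 68. OFP28 (GRMZM2G122709) stood at 56.0, 83.3, 77.0 and 60.6 in ndl1, 9.08 and 17.0 in the double heterozygotes and 222, 227 and 172 in wildtype. As for BAD1, the mutants did not overlap, with L of -1.57 in ndl1 and -3.89 in the double heterozygotes. OFP32 (GRMZM2G133311) stood at 28.9, 25.9, 23.9 and 17.9 in ndl1, 15.4 and 21.3 in the double heterozygotes and 35.0, 74.7 and 58.2 in wildtype. Wildtype replicate 1 came close to the highest ndl1 library, and the mutants overlapped (L of -1.18 in ndl1 and -1.56 in the double heterozygotes).

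GLK47 (GRMZM2G060834) belongs to the Golden2-like family of transcription factors. It had 438, 710.4, 696 and 526 counts in ndl1, 445 and 464 in the double heterozygotes and 1155, 1354 and 1226 in wildtype. Here L was -1.07 in ndl1 and -1.46 in Bif1;Bif4, and ndl1 replicate 1 lay below both Bif1;Bif4 libraries. EREB93 (GRMZM2G066158), of the family of ethylene-responsive element binding factors, had 31.7, 55.2, 58.4 and 41.7 in ndl1, 23.6 and 31.9 in the double heterozygotes and 63.2, 142 and 105 in wildtype. The highest ndl1 library was close to the lowest wildtype one, with L of -1.12 in ndl1 and -1.86 in the double heterozygotes. The MYB-related gene MYBR113 (GRMZM2G001106) had 13.1, 25.9, 43.4 and 11.9 in ndl1, 9.08 and 3.19 in the double heterozygotes and 80.7, 66.9 and 51.2 in wildtype. Its L was -1.45 in ndl1 and -3.25 in Bif1;Bif4, and ndl1 replicates 1 and 4 lay close to Bif1;Bif4.

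ACO20 (GRMZM2G126732) is named as an ACC oxidase gene, whose product makes ethylene in the last step of its synthesis. It stood at 23.3, 49.5, 80.5 and 21.9 in ndl1, 20.9 and 21.3 in the double heterozygotes and 97.3, 242 and 211 in wildtype. Among the 14 genes with a descriptive name it had the lowest L in ndl1, -2.04, with -3.07 in Bif1;Bif4. AUX10 (GRMZM2G057067), an auxin gene by its name, stood at 60.7, 54.0, 113 and 144 in ndl1, 71.8 and 35.1 in the double heterozygotes and 179, 356 and 295 in wildtype (L of -1.56 in ndl1 and -2.35 in the double heterozygotes). Of the 47 genes with a place in the reference it was the one that overlapped another RefSeq gene, and the strand setting of the counting is not given in the sources used here, so that its reads may be shared.

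Channel genes were Lsi1 (GRMZM2G028325, also NIP2-1), named for a silicon channel known from rice, and ZMK1 (GRMZM2G171279), a potassium channel gene. Lsi1 stood at 17.7, 19.1, 27.4 and 31.8 in ndl1, 37.2 and 14.9 in the double heterozygotes and 69.0, 59.2 and 54.7 in wildtype. The level of ZMK1 was 40.1, 63.0, 37.2 and 19.9 in ndl1, 38.2 and 29.8 in the double heterozygotes and 88.5, 122 and 101 in wildtype. For both genes the mutants overlapped, while the rule had set them below wildtype.

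The other named genes are of mixed kinds. The seed globulin gene glb1 (GRMZM2G067919) stood at 20.9 to 48.4 in ndl1, 29.98 and 29.75 in the double heterozygotes and 59.3 to 115 in wildtype. TAB2 (GRMZM2G081955), named after a factor for translation of a photosystem I protein in Chlamydomonas, stood at 24.8 to 47.3 in ndl1, 36.3 and 45.7 in the double heterozygotes and 73.4 to 109.6 in wildtype. For sfp4 (GRMZM2G154211) the range was 24.8 to 32.7 in ndl1, 14.5 and 29.8 in the double heterozygotes and 66.1 to 80.5 in wildtype. In each of these genes the mutants overlapped, and the rule had set them below wildtype.

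**Figure D2:**
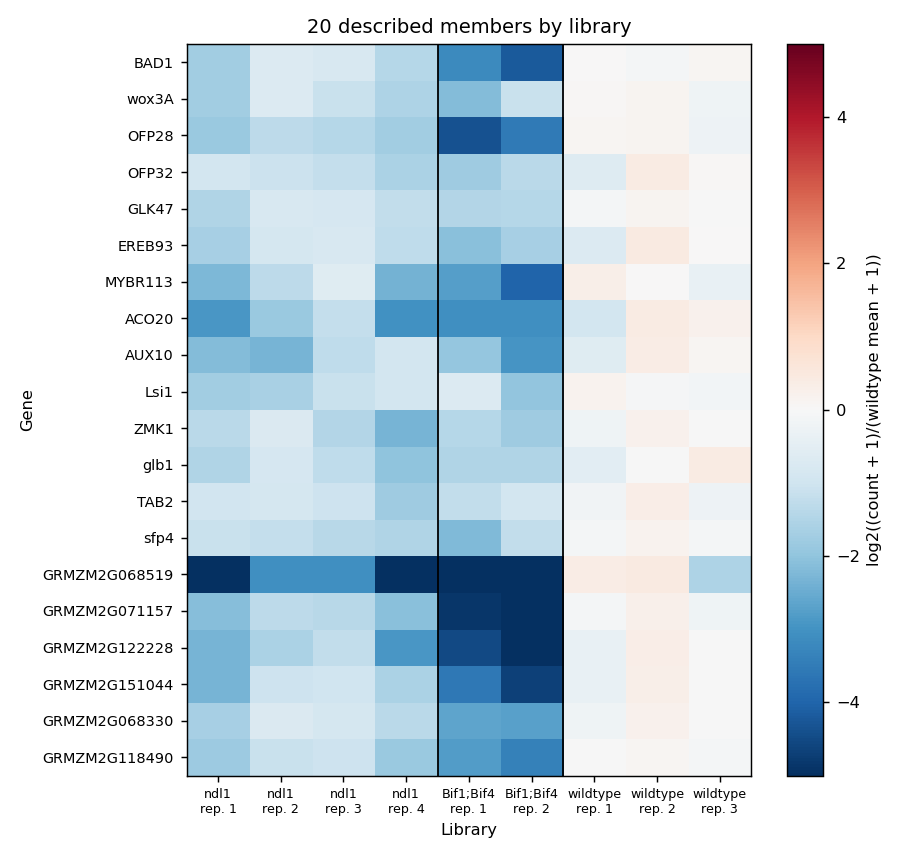
Levels of 20 of the 68 genes (rows) in the 9 libraries (columns), as log2 of the normalized count plus 1 over the wildtype mean plus 1. They are the 14 with a descriptive name, the 5 with the lowest sum of both L values and the 6 with the lowest adjusted p between the mutants, some of which coincide. The Bif1;Bif4 columns are darkest for BAD1, OFP28 and the identifiers at the bottom, and GRMZM2G068519 is dark in all mutant columns.

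The lowest sums of L belonged to GRMZM2G068519, GRMZM2G071157, GRMZM2G122228, OFP28 and GRMZM2G151044, of which OFP28 alone has a descriptive name. GRMZM2G068519 had 0, 7.88, 7.96 and 0 counts in ndl1, 0.908 and 1.06 in the double heterozygotes and 94.3, 102 and 24.5 in wildtype. Its Bif1;Bif4 libraries held 2 reads together, against 223 in wildtype, which is 1.28% of the wildtype level with an exact 95% interval of 0.154% to 4.68% that covers counting error only. GRMZM2G071157 had 29.9, 54.0, 50.4 and 30.8 in ndl1, 3.63 and 1.06 in the double heterozygotes and 125, 163 and 118 in wildtype. GRMZM2G122228 likewise had 24.3, 41.7, 53.1 and 15.9 in ndl1, 4.54 and 1.06 in the double heterozygotes and 97.3, 158 and 123 in wildtype. In both genes Bif1;Bif4 was near 0 reads and ndl1 was intermediate. GRMZM2G151044 showed the same order of groups, at 161, 387, 396 and 267 in ndl1, 67.2 and 30.8 in the double heterozygotes and 624, 985 and 795 in wildtype. Wildtype levels were uneven for 2 of the 68 genes, whose lowest wildtype library was under 50% of the wildtype mean: GRMZM2G068519 and GRMZM2G322819, the second chosen after its values were seen. GRMZM2G322819 had 148, 117, 227 and 63.6 in ndl1, 159.9 and 133 in the double heterozygotes and 1095, 846 and 264 in wildtype, so that wildtype replicate 3 lay close to ndl1.

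Within ndl1 the level of the 68 genes differed between libraries. Replicates 1 and 4 kept a median of 31.2% and 32.4% of the wildtype mean, and replicates 2 and 3 kept 44.8% and 44.4%. The lowest ndl1 library was replicate 1 or 4 for 63 of the 68 genes. Replicate 1 was lowest for 35 (51.5%) and replicate 4 for 28 (41.2%), beside 22.7% and 31.9% of the 18488 genes with a wildtype mean of at least 50. Both of these libraries lay below both others for 44 genes (64.7%), beside 24.8% of the 18488. The Bif1;Bif4 libraries kept medians of 27.6% and 26.4%. The wildtype libraries stood at medians of 92.1%, 108.8% and 98.0%, replicate 1 being the lowest of the 3 for 37 genes (54.4%) and replicate 2 the highest for 40 (58.8%), beside 33.2% and 29.8% of the 18488. Over all 18488 genes every library had a median between 97.9% and 100.1% of the wildtype mean.

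**Figure D3:**
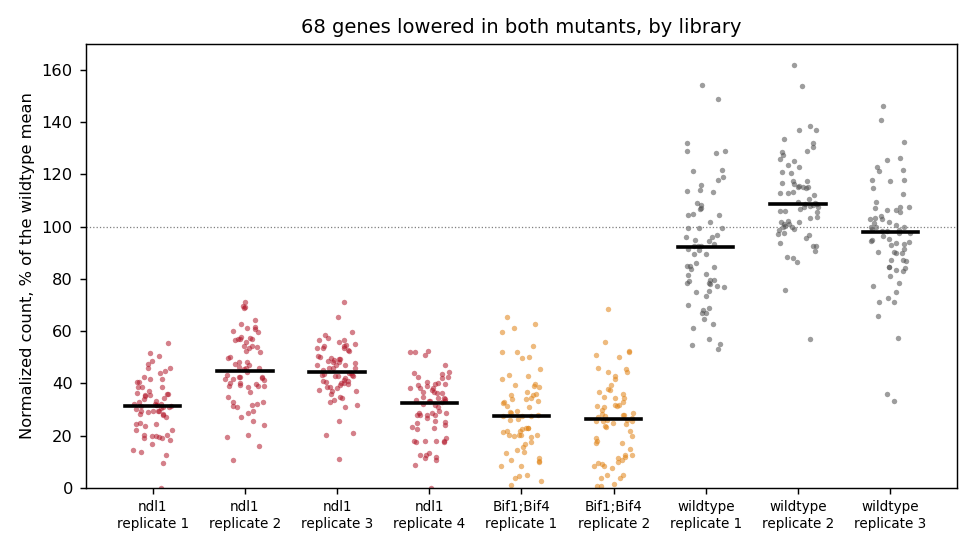
Normalized count of each of the 68 genes (points) in each library as a percentage of the wildtype mean, with black bars for the median. The ndl1 medians are 31.2%, 44.8%, 44.4% and 32.4%, the Bif1;Bif4 medians 27.6% and 26.4%, and the wildtype medians 92.1%, 108.8% and 98.0%.

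Levels in ndl1 and in Bif1;Bif4 were then compared directly, a contrast that the choice of genes did not use as such. The choice did limit the level in each mutant in the same libraries, so it may have shaped the direction of these differences. Taken singly, 171 genes met its conditions in ndl1 and 266 in Bif1;Bif4. The part of the choice in the differences below was not tested. BAD1, OFP28 and 11 other genes of the 68 were higher in ndl1 than in Bif1;Bif4 (limma on all 9 libraries, Benjamini-Hochberg adjusted p from 0.00134 to 0.0455), and none was lower. Over all 23203 genes tested, 1.79% were called higher in ndl1, 1.68% lower and 3.47% in either direction. None of the 68 was lower at an unadjusted p under 0.05 either, and edgeR and DESeq2 also called 0 lower, against 11 and 17 higher. The median difference, ndl1 minus Bif1;Bif4, was 0.38 on the log2 scale over the 68 genes, 53 of them positive, and 0.00 over all genes tested. All 4 ndl1 libraries lay above both Bif1;Bif4 libraries for 20 of the 68 genes (13.3% of all genes tested), and for 0 they all lay below (14.5% of all genes). In the other 48 the mutants overlapped.

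The largest of the 13 differences was that of GRMZM2G071157, 3.72 ± 0.39 (log2, SE), at 41.3 ± 12.7 in ndl1 (SD, n = 4) and 2.35 ± 1.82 in Bif1;Bif4 (SD, n = 2). GRMZM2G122228 differed by 3.22 ± 0.53 and GRMZM2G151044 by 2.62 ± 0.40. BAD1 differed by 2.53 ± 0.35 (limma, Benjamini-Hochberg adjusted p = 0.00579), at 118 ± 40.5 in ndl1 (SD, n = 4) and 20 ± 10.3 in Bif1;Bif4 (SD, n = 2). OFP28 differed by 2.36 ± 0.28 (limma, Benjamini-Hochberg adjusted p = 0.00234), at 69.2 ± 13.0 in ndl1 (SD, n = 4) and 13.0 ± 5.6 in Bif1;Bif4 (SD, n = 2). Smaller differences were found for GRMZM2G118490 (1.63 ± 0.26) and GRMZM2G068330 (1.56 ± 0.24). GRMZM2G118490 had 277, 456, 479.6 and 274 in ndl1, 143 and 93.5 in the double heterozygotes and 986, 1052 and 934 in wildtype. For GRMZM2G068330 the levels were 358, 687, 617 and 441 in ndl1, 177 and 168 in the double heterozygotes and 968, 1289.7 and 1108 in wildtype. In each of these 7 genes every ndl1 library lay above both Bif1;Bif4 libraries, and below wildtype as the rule asks. Without Bif1;Bif4 replicate 1 the test called 6 of the 68, without Bif1;Bif4 replicate 2 it called 2 (GRMZM2G071157 and OFP28), and without ndl1 replicate 3 it called 8. BAD1 then missed the threshold without Bif1;Bif4 replicate 2 (limma, Benjamini-Hochberg adjusted p = 0.0795), while its difference was 2.01, and over all 18 settings tried its adjusted p ran from 3.09e-08 to 0.0795.

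**Figure D4:**
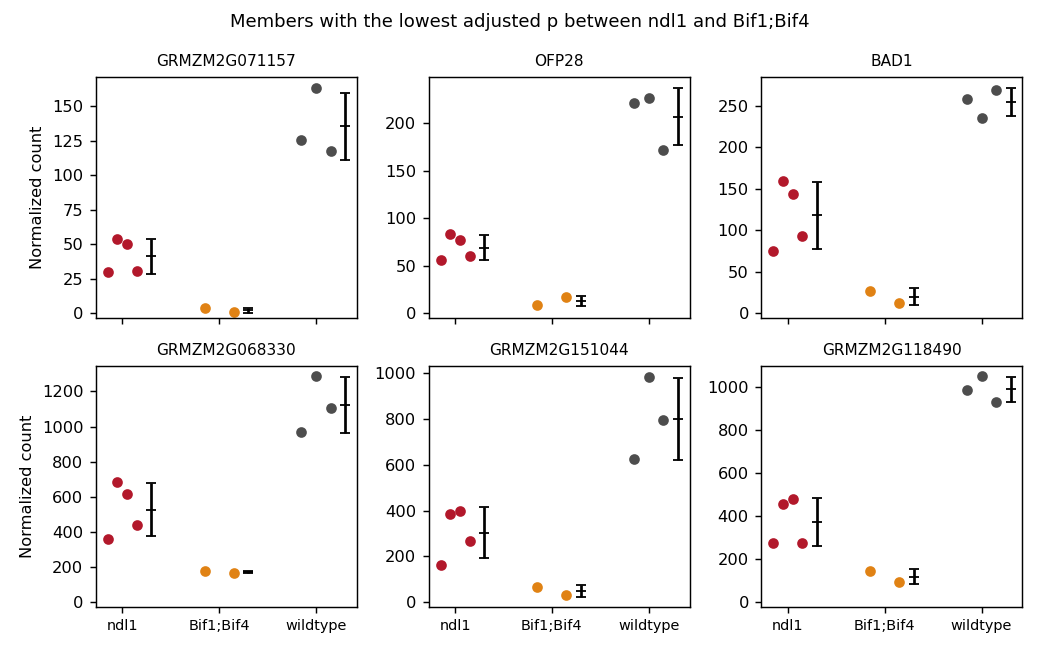
Normalized counts (vertical axes, from 0) of the 6 genes with the lowest adjusted p between ndl1 and Bif1;Bif4, with points for libraries and black bars for the mean ± SD of 4 ndl1, 2 Bif1;Bif4 and 3 wildtype libraries. In each panel the ndl1 points lie above the Bif1;Bif4 points, and below wildtype as the rule asks.

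The other 12 named genes did not pass between the mutants. For wox3A the difference, ndl1 minus Bif1;Bif4, was 0.38 with a 95% interval of -0.37 to 1.13, and for GLK47 0.35 (-0.06 to 0.76). It was 0.71 (-0.09 to 1.51) for EREB93 and 0.37 (-0.40 to 1.15) for OFP32. MYBR113 had 1.73 (0.50 to 2.97), with a Benjamini-Hochberg adjusted p of 0.138 in limma. ACO20 had 0.82 (-0.39 to 2.03) and AUX10 0.76 (-0.26 to 1.78). Closest to 0 were Lsi1 at -0.02 (-0.88 to 0.84) and TAB2 at -0.08 (-0.75 to 0.59). For ZMK1 it was 0.13 (-0.73 to 1.0), for glb1 0.10 (-0.69 to 0.90) and for sfp4 0.43 (-0.24 to 1.10). Each of the 12 intervals but that of MYBR113 includes 0. Their upper bounds, from 0.59 to 2.97, are the largest differences toward a higher level in ndl1 that these intervals cover. For Lsi1 and TAB2 the lower bounds, -0.88 and -0.75, lie further from 0 than the upper ones.

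Genes from lists of names were tested against wildtype, leaving out the 68 and the 7. That step took out the list genes chosen for low levels in these same contrasts, which lowers the counts of falls below. Over all genes tested, limma called 1.22% lower and 1.94% higher in ndl1, and 2.05% lower and 2.23% higher in Bif1;Bif4. Of 42 inflorescence regulator identifiers, 2 were among the 68 and 6 among the 7, and of 42 MADS box identifiers 0 and 1 were. Of 58 auxin identifiers, 1 was among the 68 and 0 among the 7, and the other lists held neither. Over all 39305 identifiers, 75 met the rule. At that share a short list would hold few or 0, so counts of 0 say little. Some names of the MADS box and auxin lists, such as M14, M2 and AUX9, matched more than 1 identifier. Among names of regulators of inflorescence architecture, ct2 and gt1 did so too. Not every gene counted here need therefore be of the kind that its list names. Of the 33 genes tested from the inflorescence list, 0 passed in ndl1 (12 at an unadjusted p under 0.05, 0 by edgeR and 1 by DESeq2). In Bif1;Bif4 3 fell (limma, Benjamini-Hochberg), where 16 had an unadjusted p under 0.05, edgeR called 1 and DESeq2 called 13. The 3 were kn1 (-0.42 ± 0.09, log2, SE) and the liguleless genes lg1 (-1.16 ± 0.24) and lg2 (-1.25 ± 0.19), which act where blade and sheath meet and in tassel branching. The median log2 difference of the 33 was -0.20 in ndl1, with 27 negative, and -0.35 in Bif1;Bif4, with 22 negative, beside 0.00 over all genes in both. The MADS box family is known for specifying floral organs and meristems. From its list, 3 of 24 tested fell and 0 rose in ndl1, and 5 of 27 fell and 2 rose in Bif1;Bif4. ZAGL1, m5 and m16 were among those that fell in each mutant. ZAGL1 stood at -0.73 ± 0.11 in ndl1 and -0.60 ± 0.08 in Bif1;Bif4, short of the 2-fold difference asked of the 68. In Bif1;Bif4 MADS76 and m6 also fell, and m19 and m31 rose. The level of m6 was low throughout, with a mean of 0.45 in Bif1;Bif4 and 11.7 in wildtype. Of auxin genes, 5 of 43 rose and 0 fell in ndl1, and 1 of 44 (ARF13) rose and 1 (ARF11) fell in Bif1;Bif4. Those that rose in ndl1 were the response factor genes ARF3 and ARF9, AUX3, GH3 and the auxin transporter gene PIN10a, the last by 4.12 ± 0.60 (log2, SE). Of 25 cell cycle and histone genes 0 passed in ndl1 in limma (3 at an unadjusted p under 0.05, 0 by edgeR and 0 by DESeq2), and the histone genes his1, H4C13 and his2b5 fell in Bif1;Bif4. The median log2 difference of the 25 was -0.19 in ndl1, with 20 negative, and -0.18 in Bif1;Bif4, with 18 negative. Their mean log2 deviation from wildtype was -0.47, -0.14, 0.13 and -0.24 in ndl1 replicates 1 to 4, so that replicates 1 and 4, where the 68 genes were lowest, were also the lowest here. Its part in the levels of the 68 was not tested. Over all 7 lists, 14 genes were called in ndl1 and 18 in Bif1;Bif4 by limma, 13 and 14 by edgeR, and 26 and 49 by DESeq2, and 51 and 77 had an unadjusted p under 0.05. Without wildtype replicate 2 limma called 2 and 0, and without either Bif1;Bif4 library 0 were called in Bif1;Bif4. In ndl1 it called 5 without ndl1 replicate 1 or wildtype replicate 1, and 8 without wildtype replicate 3, and in Bif1;Bif4 12 without wildtype replicate 1.

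Markers of other tissues are set beside the 68 genes, whose low levels in the mutants the choice fixed. The mean log2 deviation from wildtype of the 68 was -1.8 to -1.16 in ndl1, -2.21 and -2.02 in Bif1;Bif4 and -0.11 to 0.16 in wildtype. The summed level of 14 vascular and secondary wall genes was 32236 to 38931 in ndl1, 30487 and 35051 in the double heterozygotes and 26361 to 31479 in wildtype, with 85.2% to 94.4% of it in each library from the sucrose synthase gene sus1. Of the 14, 2 (both cesa11 identifiers) had no read in any library. Of 9 tested, ccr2 rose and cad1 fell in ndl1, and 0 passed in Bif1;Bif4 in limma (4 at an unadjusted p under 0.05, 0 by edgeR and 0 by DESeq2). The median log2 difference of the 9 was 0.54 in ndl1, with 2 negative, and 0.30 in Bif1;Bif4, with 1 negative, beside 0.00 over all genes. For 15 photosynthesis genes, a sign of green tissue, the sum was 1031 to 1894 in ndl1 and 1122 and 1303 in the double heterozygotes. In wildtype it was 910.3 to 1044. Of 6 tested in ndl1 and 7 in Bif1;Bif4, Ppdk1 alone passed, rising in both mutants. With each mutant scaled apart, Ppdk1 had a mean of 602 in ndl1 against 59.7 in wildtype, and 332 in Bif1;Bif4 against 59.2. Ppdk1 is part of the sums above, so higher sums in the mutants need not reflect the other genes of this list. The median log2 difference was -0.19 in ndl1, with 4 of 6 negative, and 0.37 in Bif1;Bif4, with 2 of 7 negative. For 12 anther and meiosis genes, a sign of later stages, the sum was 6768 to 7412 in ndl1, 5752 and 6026 in the double heterozygotes and 6449 to 6957 in wildtype, and of 9 tested afd1 and Dmc1 rose and ZYP1 fell in ndl1, while afd1 rose and ocl4 fell in Bif1;Bif4. The part of tissue makeup in the lower levels of the 68 genes was not tested.

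**Figure D5:**
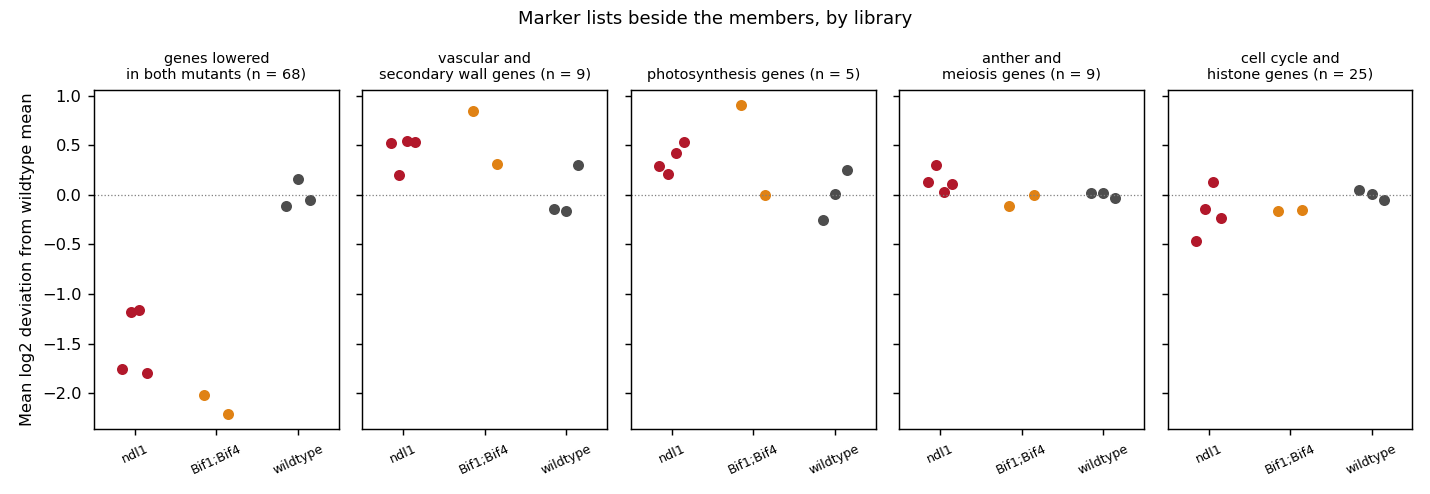
Mean log2 deviation from the wildtype mean (vertical axis) in each library (points) for the 68 genes and for 4 marker lists, over the list genes with a mean level of at least 10 normalized counts. The 68 genes lie from -2.21 to -1.16 in the mutant libraries, while the lists lie between -0.47 and 0.90.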

How the data were processed

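RNA was measured in 9 tassel libraries; per the labels, they were stranded TruSeq mRNA libraries. The submitters' processing notes name Trimmomatic, HTSeq, DESeq2 and TopHat2 2.1.1. The sources used here give neither the genome build nor the strand setting. The deposited signal per library is the authors' count divided by a size factor, per the file headers and values: 100% of values were whole reads within 0.1 reads. The deposited log2 fold changes, p-values and DESeq2 statistic, a score, were not used. Members were chosen by the rule stated above, and members and lists were chosen with earlier results of these data known. L was computed within each deposited table. For direct comparison the recovered reads of all 9 libraries, the wildtype reads being identical in both tables (0 of 39305 genes differing), were scaled together by the median of ratios.

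Genes were filtered with edgeR's filterByExpr (minimum count 10). Log2 values of the normalized count plus 1 were then fitted in limma 3.58.1 under R 4.3.3, letting the variance follow the mean level, with Benjamini-Hochberg adjustment over all genes and a threshold of 0.05. The added 1 shrinks changes of low genes. Recovered counts were also tested with edgeR 4.0.16 (quasi-likelihood) and DESeq2 1.42.0. The fits were tested on simulated data. Gene names came from RefSeq's table of Zm-B73-REFERENCE-NAM-5.0, which matched 18476 identifiers to 1 gene, and 7 lists were matched by symbol. Named genes were those with a descriptive symbol or synonym, the 5 lowest sums of L and up to 6 genes a direction called between the mutants, plus those at the threshold. Labels do not say that replicates were separate plants, so p-values measure the spread between these libraries, which may be technical. Reads of near-identical or overlapping genes are uncertain.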

Additional observations from a re-analysis of the deposited data

Results flagged for a closer look

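Of the 20 genes that the naming rule chose for a description of their own, 7 had effects that differed between the mutants by the test of ndl1 against Bif1;Bif4 (limma, Benjamini-Hochberg adjusted p from 0.00134 to 0.0122). The differences, ndl1 minus Bif1;Bif4 on the log2 scale, were 3.72 for GRMZM2G071157, 3.22 for GRMZM2G122228, 2.62 for GRMZM2G151044, 2.53 for BAD1, 2.36 for OFP28, 1.63 for GRMZM2G118490 and 1.56 for GRMZM2G068330, each with all 4 ndl1 libraries above both Bif1;Bif4 libraries. In none of the 20 did a single ndl1 library stand apart from the other 3 by Dixon's 95% criterion.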

How the results depend on the processing

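The count of 68 genes depended on the rule. It was 173 with falls of at least 1.5-fold and 13 with at least 3-fold, and 108 and 44 with wildtype means of at least 20 and 100. Leaving out 1 library at a time gave 60 to 103 genes, the highest without wildtype replicate 1, of which 64 were among the 68. With an added count of 10, joint scaling or no condition on overlap it stayed within 1.5 times. Between the mutants, 806 genes were called with all libraries, 1628 by DESeq2, 363 with mutant libraries alone and 152 to 897 with 1 library left out. Of the 68 genes, 6 were called with mutant libraries alone and 2 to 13 with 1 library left out, all higher in ndl1. Of the 7 genes singled out above, GRMZM2G071157 and OFP28 were called in all 18 settings and the other 5 in 15 or 16. Against wildtype, ndl1 had 708 calls, 2210 by DESeq2 and 111 to 1467 with 1 library left out, and Bif1;Bif4 had 957, 2105 by DESeq2 and 1 to 1299. The lowest of each came without wildtype replicate 2. The cause was not tested. Deviations of same-numbered libraries from their group means had correlations of -0.20 to 0.21 over 7 pairs. With so few libraries a group these deviations constrain one another, so they cannot decide whether the numbers pair samples. With the replicate number as a block, calls numbered 336 between the mutants (4 of the 68), 365 in ndl1 and 431 in Bif1;Bif4 against wildtype. Bif1;Bif4 had 2 libraries, and leaving one out assumes that the other varies like the rest. Alternatives for L were chosen after seeing the data and tried only for the genes with a descriptive name and the 5 lowest sums of L. None of these L values changed sign, which the choice of genes made unlikely. In 19 cases L moved by at least the SD between the mutant libraries.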
